A study of Mus musculus with 12 samples.

Results

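The sperm chromatin packaging genes described here are 9 mouse genes grouped for their link to the packaging of DNA in male germ cells. They were chosen by name. They are Hist1h2ba and Hist1h1t, H1fnt and Hils1, the transition protein genes Tnp1 and Tnp2, the protamine genes Prm1 and Prm2, and Prm3 of the same cluster. In spermatocyte libraries each of the 9 had its own row, among 36823 rows with a gene name. GC2 cells are known as an immortalised mouse spermatocyte line, though their markers below do not bear out that name. In their libraries 2 of the 9 had a row, Hist1h1t and Tnp2, among 24711, and the other 7 were not analysed here.

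RNA sequencing was done on 12 libraries in 4 groups of 3, namely control and PHB Knockdown GC2 cells, and spermatocytes of control and Phb conditional knock-out mice. Phb encodes prohibitin, a protein of the inner mitochondrial membrane. The spermatocytes were enriched from enzyme-digested seminiferous tubules by flow sorting on a Hoechst DNA stain, a sort that also collected spermatogonia and round spermatids as populations of their own. The sources used here do not give the Cre driver of the knockout, the age and strain of the mice, the number of animals behind a library or the way the knockdown was made. The replicates are called biological without naming cultures or animals, and the p-values therefore measure spread among libraries that may be technical.

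In most body cells DNA winds around histones. In the haploid spermatids that follow meiosis, testis-specific histone variants loosen this chromatin, transition proteins take the place of most histones, and protamines, small proteins very rich in arginine, finally condense the DNA of the sperm head. The genes for transition proteins and protamines are transcribed in round spermatids, and their mRNAs are stored before translation. The testis form of histone H2B and the linker histone H1t, by contrast, are known from germ cells before that stage. The linker histones of H1fnt and Hils1 belong to spermatids.

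Tnp2, Prm3, Prm2 and Prm1 lie side by side on the minus strand of chromosome 16, from 10787936 to 10796886 (GRCm38), a span of 8.95 kb. The transcripts of the other genes lie on chromosome 1 (Tnp1, 73015074 to 73015909, minus strand), chromosome 11 (Hils1, 94967593 to 94968456, plus), chromosome 13 (Hist1h1t, 23695814 to 23696725, plus, and Hist1h2ba, 23933773 to 23934156, minus) and chromosome 15 (H1fnt, 98255986 to 98257293, minus).

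CREM, a transcription factor of spermatids, is known to activate Tnp1 and Prm1 through sites of the cyclic AMP response type, so the promoters were searched for such letters. The promoter windows of all 9 genes, in RefSeq on GRCm38.p6, were searched over the 250 bases before the start. TGANNTCA, which reads the same on both strands, was found in the windows of Prm1, Prm3 and Tnp1, and in 11.9% of all 32851 windows of that length. The half-site TGACGT, on either strand, was found in the window of Hist1h2ba alone, and in 6.47% of all windows. A TGANNTCA match can contain the half-site, and none of these did. The windows that hold a match are shown over the last 120 bases before the start, 5′ to 3′ on the gene's strand, with the match in capitals.
Prm1, chr16:10796824-10796943, minus strand: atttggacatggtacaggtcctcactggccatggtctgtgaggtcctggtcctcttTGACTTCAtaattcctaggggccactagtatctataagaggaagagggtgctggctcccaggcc
Tnp1, chr1:73015900-73016019, minus strand: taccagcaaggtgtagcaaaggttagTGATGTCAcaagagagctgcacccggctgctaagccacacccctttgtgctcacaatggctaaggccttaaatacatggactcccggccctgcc
Prm3, chr16:10790915-10791034, minus strand: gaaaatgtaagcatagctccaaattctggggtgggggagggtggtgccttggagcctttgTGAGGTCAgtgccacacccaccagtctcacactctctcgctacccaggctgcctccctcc
Hist1h2ba, chr13:23934157-23934276, minus strand: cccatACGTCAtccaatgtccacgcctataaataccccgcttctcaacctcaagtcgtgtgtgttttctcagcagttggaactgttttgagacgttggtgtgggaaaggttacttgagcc
Counting back from -1 at the base before the start, the matches span -64 to -57 in Prm1, -94 to -87 in Tnp1, -60 to -53 in Prm3 and -115 to -110 in Hist1h2ba. The letters TATAA, searched on the gene's strand over the last 50 bases, stood in the windows of Prm1, Tnp2 and Hist1h1t and in 4.93% of all windows. A match is a run of letters and does not show binding, and a window without one says nothing of the factor.

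Levels are FPKM, fragments per kilobase of transcript scaled to the sequencing depth of the library, a scale on which genes of different length can be compared. Where a mean is given, it is followed by its SD over the 3 libraries of the group, and control precedes knockout. FPKM totals were 289707 to 297362 in the 6 spermatocyte libraries and 194949 to 206711 in the 6 GC2 libraries. The files give no read counts. The steps between low values gave estimated depths, in units of 1000000 fragments, of 14.7 to 15.8 in the control spermatocyte libraries and of 15.4, 11.4 and 15.2 in the knockout libraries. Fragment numbers below are estimates from these depths. The estimate for GC2 libraries rested on few rows and was not used. Phb was at 13.3 ± 0.634 FPKM in control and 11.6 ± 0.241 in knockout spermatocytes (log2 fold change -0.18, adjusted p = 0.0074 by limma). This small difference checks the genotype label little, since a gene-level value does not show which exons are left. It also depends on the scaling. Median centring moved the median log2 fold change of all tested rows from 0.047 to 0.208. Every row moved by the same step, which is nearly as large as the difference in Phb.

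Tests in spermatocytes were limma's moderated test on log2(FPKM + 1), two-sided, with Benjamini-Hochberg adjustment over all 15957 rows with 1 FPKM or more in 3 or more of 6 libraries. Of the 9 genes, 8 reached this filter and Hist1h1t did not. Transcripts of 7 genes fell in the knockout, and Hist1h2ba was not called. This count stands beside 38.5% of all tested rows called lower, 40.9% called higher and 79.4% called in either direction, so a call by itself says little here. Of all calls 51.6% were higher, and 62% with quantile normalization. H1fnt, Hils1, Prm2 and Prm3 passed the filter only through the control libraries, and Tnp2 through these and 2 knockout libraries, so the share of tested genes that fell is not read further. In bulk samples such as these, fewer cells of a type and less RNA per cell cannot be told apart.

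**Figure D1:**
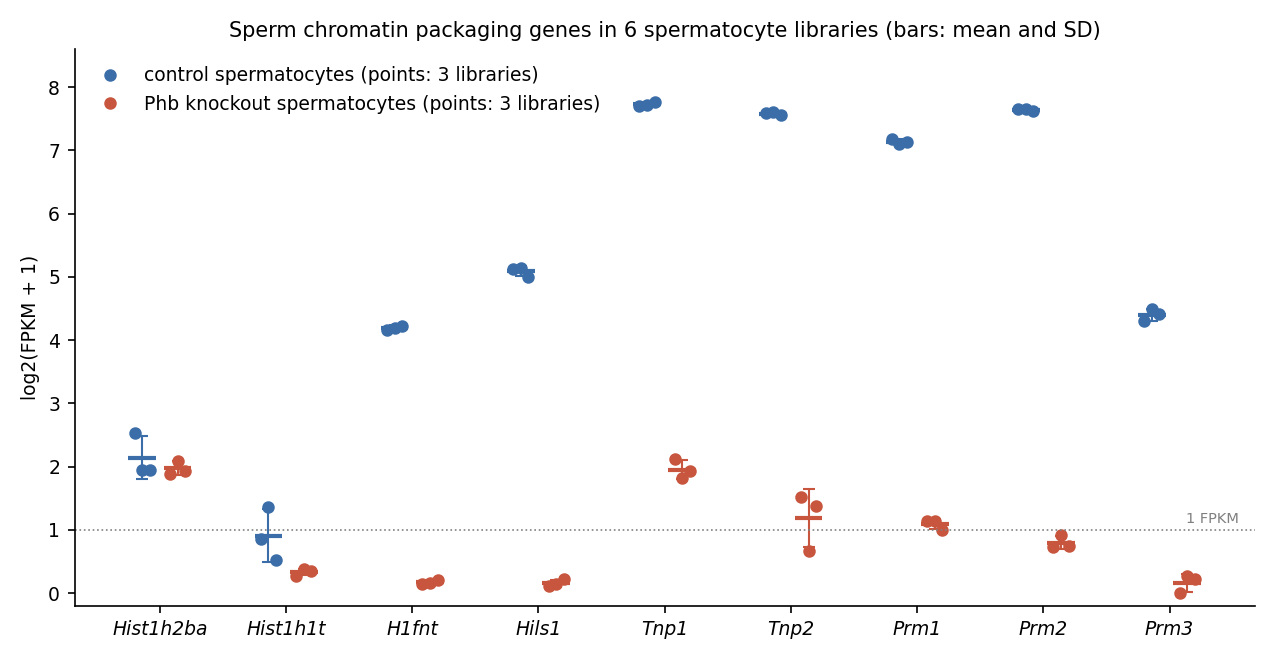
Level of each packaging gene, as log2(FPKM + 1), in the 3 control and 3 Phb knockout spermatocyte libraries, with 1 point per library, the mean as a bar and the SD as whiskers. The genes from H1fnt to Prm3 lie far apart between groups, and Hist1h2ba overlaps. Hist1h1t is low in both groups, though its groups do not overlap. The share of all rows without overlap was not computed.

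Hist1h2ba encodes the testis form of histone H2B and is known to be made before the transition proteins. It held 4.77, 2.87 and 2.86 FPKM in the control libraries and 2.69, 3.27 and 2.83 in the knockout libraries. The groups overlapped, and 1 control library lay above all others. The means were 3.5 ± 1.1 and 2.93 ± 0.303 FPKM, a log2 fold change of -0.17 (95% confidence interval -0.60 to 0.25, adjusted p = 0.391 by limma). This rests on about 61 fragments in all control and 46 in all knockout libraries, and the interval leaves room for changes either way. Without control replicate 1 the log2 fold change was 0.021, and with quantile normalization 0.081, both on the other side of 0.

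Hist1h1t encodes the testis linker histone H1t, which is known to be made in pachytene spermatocytes. Its row held 0.81, 1.56 and 0.43 FPKM in control and 0.21, 0.3 and 0.27 in knockout libraries, about 38 and 10 fragments in all. The groups did not overlap, but control replicate 2 lay well above the other control libraries and all 6 values were low. Tested without the filter, the log2 fold change was -0.58 with adjusted p = 0.0752 by limma. With each library rescaled to a total of 1000000, the row passed the filter and was called lower, at -1.06 with adjusted p = 0.0307. How RNA was selected for the libraries is unknown here. The 54 other rows of the Hist1 histone cluster, looked up after the values of Hist1h1t were seen, had a median control level of 0.383 FPKM, and 16 of them reached 1 FPKM. Among them Hist1h2aa, the H2A gene beside Hist1h2ba, was at 1.44 ± 0.807 and 0.897 ± 0.309 FPKM and was not called (adjusted p = 0.318 by limma).

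H1fnt and Hils1 encode linker histones of spermatids, and H1fnt is known to be needed for normal condensation of the sperm nucleus in mice. H1fnt held 16.79, 17.3 and 17.77 FPKM in control and 0.1, 0.12 and 0.15 in knockout libraries. Hils1 held 33.82, 34.42 and 31.01 FPKM in control and 0.08, 0.1 and 0.16 in knockout libraries. All control libraries lay far above all knockout libraries for both genes, and the knockout values stood for only 7 fragments of H1fnt and 4 of Hils1 over 3 libraries. On the log2(FPKM + 1) scale the fold change was -4.02 for H1fnt (SE 0.045, adjusted p = 1.4e-08 by limma) and -4.94 for Hils1 (SE 0.057, adjusted p = 1.5e-08). That scale understates falls to near 0, and the ratio of mean FPKM was 140.2 for H1fnt and 292 for Hils1. From the estimated fragments the ratios had 95% exact binomial intervals of 65.4 to 337 and 116 to 1098, which cover counting error only.

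Hils1 overlaps Sgca, a sarcoglycan gene on the opposite strand. The row of Sgca fell too (log2 fold change -2.74, adjusted p = 4.3e-07 by limma), with 6.11 ± 0.57 FPKM in control and 0.06 ± 0.0557 in knockout. Tnp1 likewise overlaps the antisense gene 1700027A15Rik, whose row fell from 12.2 ± 0.338 to 0.0567 ± 0.0982 (log2 fold change -3.65, adjusted p = 1.1e-07 by limma). The kit marked strand, per the labels' protocols, but no source used here says whether the values were made by strand, so reads of these overlapping pairs may not be told apart.

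Tnp1 and Tnp2 encode the transition proteins that replace histones before protamines are laid down. Tnp1 was the most abundant of the 9 genes in control spermatocytes, with 207.71, 209.34 and 216.62 FPKM, against 3.34, 2.51 and 2.79 in the knockout. Tnp2 held 191.98, 193.02 and 187.25 FPKM in control and 1.87, 0.59 and 1.61 in knockout libraries. Control levels were close together in both genes, while Tnp2 was lower in knockout replicate 2, at an estimated 4 fragments, than in the other knockout libraries. The log2 fold change was -5.78 for Tnp1 (SE 0.079, adjusted p = 2.5e-08 by limma) and -6.39 for Tnp2 (SE 0.22, adjusted p = 9.3e-07). The ratios of mean FPKM were 73.3 for Tnp1 and 141 for Tnp2, and 1.36% and 0.711% of the control level remained.

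Prm1 and Prm2 encode the 2 protamines of mouse sperm, and Prm3 is a small gene between them and Tnp2 whose product is acidic, unlike a protamine. Prm1 held 144.08, 136.69 and 139.33 FPKM in control and 1.21, 1.2 and 1 in knockout libraries. Prm2 held 199.48, 199.95 and 195.58 FPKM in control and 0.65, 0.89 and 0.68 in knockout libraries. Both were tight within each group and apart between groups, and the knockout values stood for an estimated 22 and 20 fragments over 3 libraries against 2991 and 5849 in control. The Prm2 row joins 2 transcripts. Its fragment numbers rest on their mean length of 647.5 bases and are less certain for that. Prm3 held 18.75, 21.45 and 20.25 FPKM in control and 0, 0.2 and 0.16 in knockout libraries, where 0.2 and 0.16 correspond to 1 fragment each. The log2 fold change was -6.05 for Prm1 (SE 0.049, adjusted p = 8.6e-09 by limma), -6.84 for Prm2 (SE 0.057, adjusted p = 8.6e-09) and -4.24 for Prm3 (SE 0.088, adjusted p = 1.1e-07). The ratio of mean FPKM was 123 for Prm1, 268 for Prm2 and 168 for Prm3. From estimated fragments the exact binomial intervals of these ratios were 82.4 to 199.7, 174 to 440.4 and 47.5 to 1432. The intervals of Prm1 and Prm2 overlapped, and that of Prm3 was the widest of the 3.

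**Figure D2:**
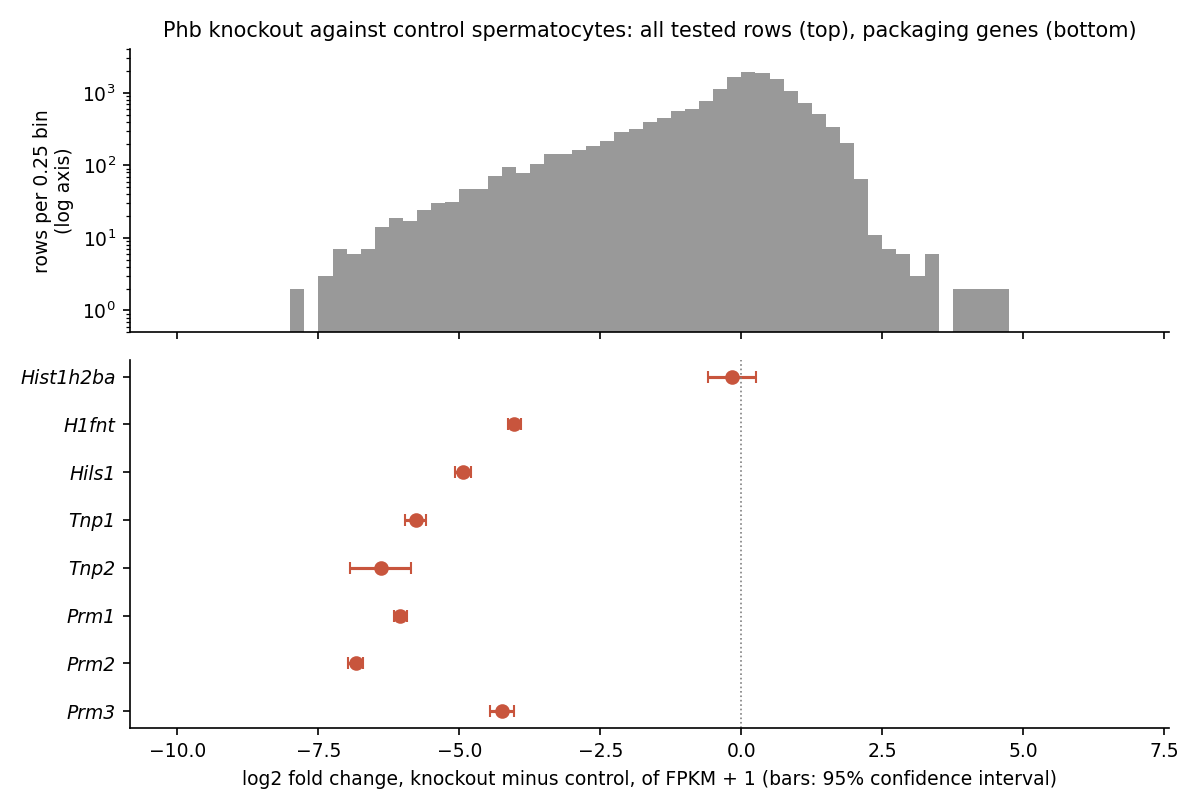
Top, number of tested rows per bin of 0.25 in log2 fold change between Phb knockout and control spermatocytes, on a log axis. Bottom, the 8 tested packaging genes on the same axis with 95% confidence intervals. Hist1h2ba lies near the median of all rows, 0.047, and the other 7 lie between -4.02 and -6.84, in the long lower tail that holds 420 rows at -4 or below.

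In the ranking of all 15957 tested rows from the largest fall, Prm2 stood at 16, Tnp2 at 30, Prm1 at 53, Tnp1 at 72, Hils1 at 172, Prm3 at 331, H1fnt at 406 and Hist1h2ba at 6420. This order partly follows the control level, because the added 1 FPKM caps the fall of lower genes. In control libraries the 9 genes together held 811 to 818 FPKM, or 0.277% to 0.282% of the library total. In knockout libraries they held 9.18 to 10.15 FPKM, or 0.00311% to 0.00349%.

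The order of levels changed between groups. In control spermatocytes it ran Tnp1, Prm2, Tnp2, Prm1, Hils1, Prm3, H1fnt, Hist1h2ba and Hist1h1t, and no neighbours in this order overlapped in range. In knockout spermatocytes it ran Hist1h2ba, Tnp1, Tnp2, Prm1, Prm2, Hist1h1t, H1fnt, Prm3 and Hils1. There the ranges overlapped between Hist1h2ba and Tnp1, between Tnp2 and Prm1, and among H1fnt, Prm3 and Hils1. Tnp2, at 0.59 to 1.87 FPKM, also overlapped with Prm2, at 0.65 to 0.89.

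Ratios between genes within a library do not depend on its scaling. Tnp1 to Prm2 was 1.04, 1.05 and 1.11 in control and 5.14, 2.82 and 4.1 in knockout libraries. Prm1 to Prm2 was 0.722, 0.684 and 0.712 in control and 1.86, 1.35 and 1.47 in knockout libraries, so what remained in the knockout held more Tnp1 and Prm1 for each Prm2. Tnp1 to Tnp2 went from 1.08, 1.08 and 1.16 to 1.79, 4.25 and 1.73. None of the 3 ratios overlapped between groups, and each reached the smallest p that 3 against 3 libraries allow, 0.1, in a two-sided exact permutation test. The 3 ratios were chosen after the values were seen. The knockout ratios rest on 20 estimated fragments of Prm2 and 34 of Tnp2.

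**Figure D3:**
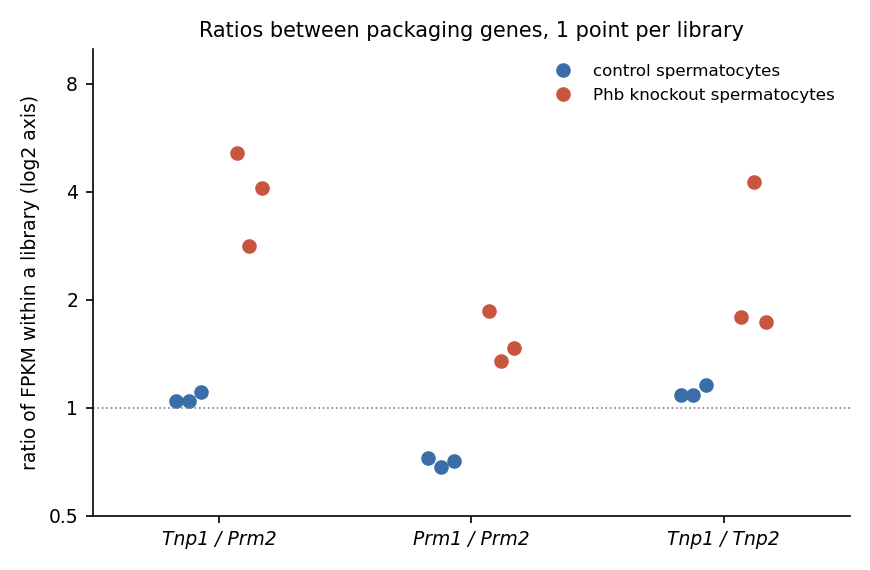
Ratio of FPKM between pairs of packaging genes within each spermatocyte library, on a log2 axis, with 1 point per library. Tnp1 to Prm2 lies at 1.04 to 1.11 in the 3 control libraries and at 2.82 to 5.14 in the 3 knockout libraries.

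The genes listed next to the cluster on chromosome 16 were low in both groups. Of 14 other annotated genes whose start lies within 250 kb of that of Prm1, 4 had no row in the files used here, 2 reached the filter and 0 were called. Socs1, an inhibitor of cytokine signalling on the Tnp2 side, with its start -11.3 kb from the start of Prm1, was at 1.5 ± 0.111 and 1.63 ± 0.193 FPKM (log2 fold change 0.068, SE 0.073, adjusted p = 0.422 by limma). The processed pseudogene Gm10343, at 4.56 kb on the other side, was at 2.08 ± 0.72 and 1.27 ± 0.284 FPKM (log2 fold change -0.43, SE 0.179, adjusted p = 0.0695). Rmi2, at 38.2 kb, was under the filter in both groups, at 0.587 ± 0.0493 and 0.39 ± 0.03 FPKM. The difference in log2 fold change between these genes and the cluster was not tested.

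**Figure D4:**
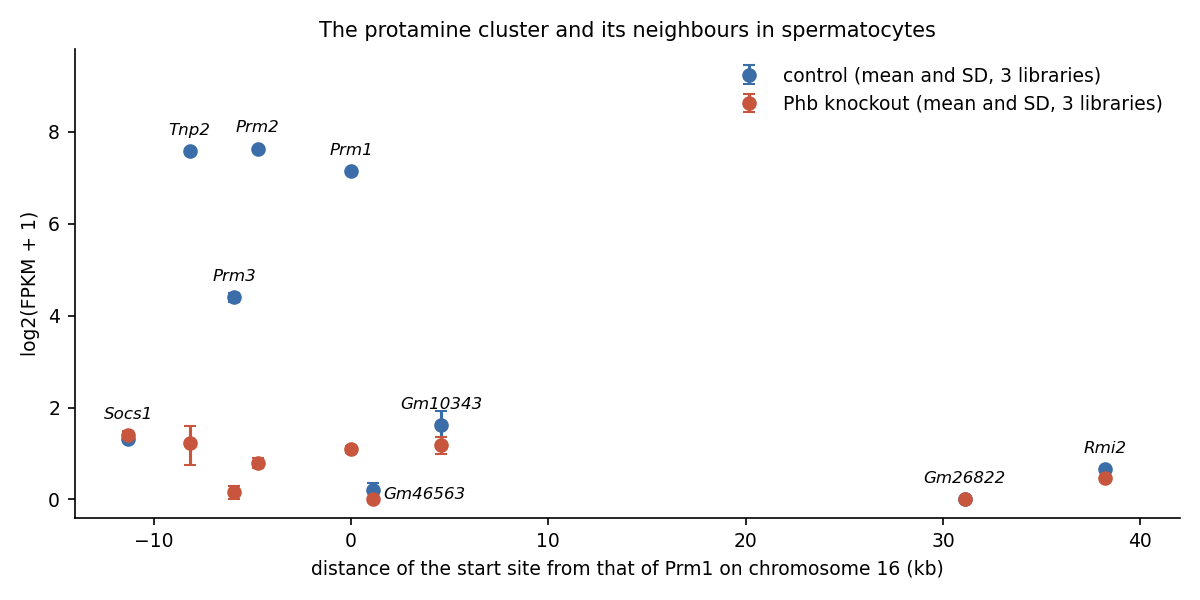
Mean level with SD, as log2(FPKM + 1), of the 4 clustered packaging genes and their listed neighbours in control and knockout spermatocytes, plotted against the distance of each start site from that of Prm1 in kb. The 4 packaging genes separate widely between groups, while the libraries of Socs1 overlap, at 1.4 to 1.62 and 1.41 to 1.78 FPKM, and those of Gm10343 lie at 1.63 to 2.91 and 1.06 to 1.59.

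Genes whose levels lay nearest to those of Prm2, by Euclidean distance of log2(FPKM + 1) over the 6 spermatocyte libraries among 35643 annotated single-gene rows, were Cetn1, Fbp1, Spink2, Atp8b3 and Adam3, at distances of 0.223 to 0.713. Adam3 is also in the spermatocyte marker list used below. Cetn1, a centrin of the sperm tail base, went from 203 ± 2.43 to 0.65 ± 0.08 FPKM. Spink2, an inhibitor of acrosomal protease, went from 188 ± 44.6 to 0.703 ± 0.197. Those nearest to Hist1h1t, Gm7672, Atp6v1fnb, Gm43377, 4930451E10Rik and 4930552P12Rik, had control means of 0.817 to 0.973 FPKM, so their likeness rests on few fragments.

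Spermatid markers fell in the same libraries as these genes, where 38.5% of all tested rows were called lower. Round spermatid markers fell in 13 of 13, with a summed level of 235 to 237 FPKM in control and 6.16 to 7.71 in knockout libraries. Of these, 11 were under 1 FPKM in the knockout and none was at 0 in all its libraries. Elongating spermatid markers fell in 11 of 11, from a summed 404 to 441 FPKM to 2.42 to 3.38, with Cabs1 and Tekt4 listed at 0 in all 3 knockout libraries. All 11 of them, and the 11 round spermatid markers under 1 FPKM, passed the filter only through the control libraries. These counts are therefore not read against the share of all tested rows. Smcp, which encodes a protein of the sperm mitochondrial sheath, went from 124 ± 0.295 to 0.263 ± 0.335 FPKM. These levels stood in control libraries labelled spermatocytes, and which cells the transcripts came from was not tested. The part of spermatids in the fall of the packaging genes was not tested.

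Among spermatocyte markers 13 of 15 fell and Dmc1 and Meiob rose. Pgk2, Adam3 and Ccna1 were under 1 FPKM in the knockout and passed the filter only through the control libraries. The 15 had a summed 2696 to 2740 FPKM in control and 325 to 332 in knockout libraries. Ldhc, a testis lactate dehydrogenase gene, made most of the control sum, with 1428 ± 10.5 FPKM in control and 5.41 ± 0.63 in knockout. Pgk2, a testis glycolytic enzyme gene, went from 67.3 ± 1.72 to 0.227 ± 0.136 FPKM and Piwil1, of the piRNA pathway, from 136 ± 6.98 to 1.75 ± 0.095. Outside the rule for named genes, the axial element gene Sycp3 is given as a defining marker, at 160.5 ± 4.6 and 124 ± 1.73. It is among the least changed of the markers that fell, and only Sycp1 and Hormad1 fell less. Sycp2 went from 43.9 ± 1.67 to 16.5 ± 0.287 FPKM and Syce1 from 172 ± 4.01 to 21.5 ± 0.728. The meiotic recombination genes Dmc1 and Meiob, also outside that rule, were at 11.9 ± 2.82 and 19.6 ± 2.9 and at 7.72 ± 0.564 and 9.99 ± 0.904. Spermatogonium markers fell in 6 of 10 and rose in 2, with a summed 255 to 260 and 273 to 284 FPKM, but with quantile normalization 1 fell and 3 rose, and with median centring 1 fell and 4 rose. Sertoli cell markers rose in 12 of 12, from a summed 854 to 936 FPKM to 3657 to 3840, and all 7 tested Leydig cell markers rose, from 38.5 to 40.9 FPKM to 253 to 271. Mesenchymal markers fell in 3 of 6 and rose in 2. Beside these marker counts, 38.5% of all tested rows were called lower and 40.9% higher. Hsd3b6 of the Leydig cell list passed the filter only through the knockout libraries. With quantile normalization or median centring 12 spermatocyte and 12 round spermatid markers fell, and the calls of Hormad1 and Izumo1 were lost. The rows of Hormad1, Izumo1, Ctsl, Cyp11a1, Insl3 and Col3a1 also name other genes, so these marker values cannot be given to one gene.

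The other genes of the pathway were read from lists drawn up by role. Factors of histone removal fell in 12 of 18 and rose in 6, beside 38.5% and 40.9% of all tested rows. Their median log2 fold change was -0.83 against 0.047 over all tested rows. Tssk6, Camk4 and Hmgb4 passed the filter only through the control libraries. Phf7, a reader and ubiquitin ligase of histones in spermatids, was the most abundant and went from 170 ± 2.34 to 6.34 ± 0.7 FPKM (log2 fold change -4.54). Hmgb4, a chromatin protein of germ cells, went from 27.3 ± 1.97 to 0.0867 ± 0.15 (log2 fold change -4.71), the kinase gene Tssk6 from 6.2 ± 1.24 to 0.503 ± 0.111 (-2.25) and Brdt, which binds acetylated histones, from 38.2 ± 0.604 to 8.32 ± 0.402 (-2.07). They had adjusted p of 3.5e-08, 1.8e-07, 1.4e-05 and 8.1e-08 by limma, in this order. The 6 that rose were Ubr2, Top2b, Cdyl, Parp2 and the shared rows of Rnf8 and Epc1, which also name other genes and cannot be given to one.

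Regulators of spermatid transcription and mRNA storage fell in 15 of 20 and rose in 4, beside 38.5% and 40.9% of all tested rows. Their median was -2.19. Of these regulators, Fhl5 passed the filter only through the control libraries. Those that rose were Taf7l, Prkra, Paip2 and Paip2b. Ybx3 and Ybx2, which encode Y-box proteins that bind and store mRNAs such as those of protamines, went from 236 ± 1.04 to 18.8 ± 0.489 FPKM and from 216 ± 2.41 to 18.9 ± 0.842 (log2 fold changes -3.58 and -3.45). The helicase gene Ddx25 went from 48.3 ± 0.0872 to 4.2 ± 0.212 (-3.25), and the row shared by Radil and the poly(A) polymerase gene Papolb from 41.7 ± 0.681 to 3.52 ± 0.166 (-3.24). Their adjusted p lay between 7.05e-09 and 1.6e-08 by limma. Crem, chosen after its values were seen for its role at the promoters shown above, had 12.3 ± 0.242 FPKM in control and 2.44 ± 0.131 in knockout (log2 fold change -1.95, SE 0.044, adjusted p = 1.6e-07 by limma). Prm1 kept 0.812% of its control level. The difference between Crem and these genes was not tested.

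Of 5 tested other linker histones, 3 rose and 1 fell, with a median of 1.25, where 40.9% of all tested rows were called higher. That median is the value of Hist1h1b, which passed the filter only through the knockout libraries. Without the filter the median over 8 rows was 0.202, so the count and the median are not read further. H1f0, the linker histone of resting cells, rose by 1.26 on the log2 scale (adjusted p = 9.3e-08 by limma), from 29.2 ± 0.179 to 71.4 ± 1.56 FPKM, Hist1h1c from 1.96 ± 0.248 to 7.02 ± 0.291 and Hist1h1b from 0.343 ± 0.306 to 2.14 ± 0.365. The row that H1fx shares with 2 other genes fell from 8.82 ± 0.902 to 2.15 ± 0.157. Sertoli cell markers summed to 3657 to 3840 FPKM in the same knockout libraries, and their part in the rise was not tested.

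Core histone variants fell in 4 of 12 tested and rose in 5, near the 38.5% and 40.9% of all tested rows, so these counts are not read further. Their median of -0.06 was above 0 with quantile normalization, median centring or mitochondrial rows removed. Of all 19, 7 were not tested, and H2afb1, H2al1a, H2al1e, H2al1o and H2al2a were listed at 0 in every knockout library. All of these but H2al2a had control means of only 0.233 to 0.947 FPKM, so their 0 says little. H2afb2 went the other way, at 0 in every control library and 0.06 ± 0.104 FPKM in the knockout. The share of all rows listed at 0 is not given here. H2al2a is an H2A variant that is known to open nucleosomes to transition proteins in mouse spermatids. It had 9.67 ± 0.0854 FPKM in the control and 0 in the knockout libraries (adjusted p = 1.7e-08 by limma). Both H2al2a and H2al3 passed the filter only through the control libraries. H2al3 went from 3.08 ± 0.63 to 0.0633 ± 0.11 (adjusted p = 2.5e-05), and the row shared by Hist3h2a and Trim17 from 6.77 ± 0.427 to 3.6 ± 0.152. The replacement histone gene H3f3b, the most abundant of the list and used in most cell types, rose by 0.49 on the log2 scale (adjusted p = 2.6e-06), from 201 ± 2.04 to 284 ± 3.58 FPKM.

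**Figure D5:**
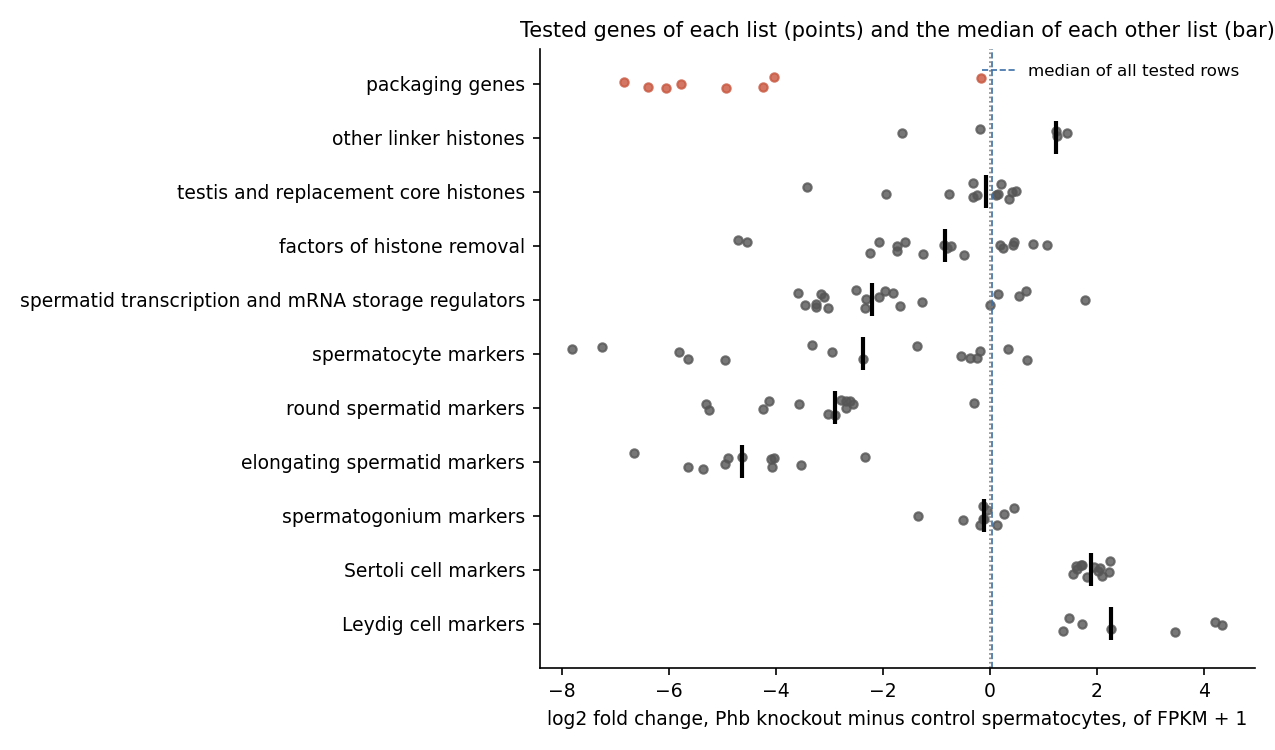
Log2 fold change between Phb knockout and control spermatocytes of the tested genes of each list, with 1 point per gene and the median of each list other than the packaging genes as a bar. The packaging genes other than Hist1h2ba lie between -4.02 and -6.84, and Sertoli and Leydig cell markers lie above 0. Other linker histones have a median of 1.25 over tested rows, which was 0.202 without the filter.

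In GC2 cells the packaging genes could not be compared. Hist1h1t was listed at 0, 0.08 and 0 FPKM in control and at 0 in all knockdown libraries. Tnp2 was listed at 0 in all control libraries and at 0, 0 and 0.02 in the knockdown. Neither reached the filter, so 0 of the 9 genes were tested, where 24.5% of 10791 tested rows were called. Tested without the filter, Hist1h1t had adjusted p = 0.569 and Tnp2 adjusted p = 0.591 by limma. Each row held a single value above 0, so these tests could not show a change or its absence. Phb in the same libraries went from 54.3 ± 2.15 to 20.02 ± 2.31 FPKM.

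Of 15 spermatocyte markers, 7 had a row in GC2 cells and none was tested, and the summed level of the 7 was 0.04 to 0.11 FPKM in control libraries. In knockdown libraries it was 0.15 to 5.01 FPKM, of which Hspa2, an HSP70 gene, made up to 4.68. A listed 0 is no measure of absence in these files, since H2afx, a histone gene used by most cells, was listed at 0 to 16.07 FPKM in control and at 0 to 9.82 in knockdown libraries. This limits the values of Hist1h1t and Tnp2 too. Round spermatid markers summed to at most 0.35 FPKM and elongating spermatid markers to at most 0.48. Mesenchymal markers such as the collagen and fibronectin genes summed to 830 to 883 FPKM in GC2 control libraries. The name of a spermatocyte line is thus not borne out by these markers. GC2 and spermatocyte tables have different rows and were scaled apart, so these levels are set side by side and not tested against each other. Of all tested GC2 rows 13.9% were called lower and 10.7% higher. Of the related lists, factors of histone removal fell in 2 of 12 tested in GC2 and rose in 0, regulators rose in 1 of 10 and fell in 0, core histone variants fell in 1 of 7, and no linker histone of 3 was called, and these shares are not read further. Named after their values were seen, those that fell were Ubr2, the shared row of Rnf8, and H2afy2, and the one that rose was Ybx1, by 0.23 on the log2 scale (adjusted p = 0.0058 by limma). With quantile normalization 1 removal factor fell and 2 rose, since Ubr2 lost its call while Parp2 and Top2b gained one, and 2 regulators rose.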

How the data were processed

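The authors deposited 1 FPKM value per row and library, with 2 decimals, for 12 mouse libraries. The submitters' processing notes name HISAT2 (2.1.0), DESeq, GRCm38 and mm10, with no role for each. The quantifier, annotation release, filters and RNA selection are not stated there or in the labels. A gene's row was that naming it, with the highest mean where there were several. Rows without a gene name (1200 in GC2, 164 in spermatocytes) were left out. Rows reaching 1 FPKM in at least 3 of 6 libraries were tested with limma 3.58.1 in R 4.3.3, with a variance trend, on log2(FPKM + 1), and a row was called where the Benjamini-Hochberg adjusted p was below 0.05. The test was also run on simulated data in which few rows changed. Most spermatocyte rows were called here, so that run says little of these calls. A count test was planned only if the files held counts.

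Depth was estimated by the value at which most low FPKM of single-exon transcripts were whole fragments, within 0.1 fragment. Only 26.9% to 32.3% of such spermatocyte values were, against a median of 17.1% to 18.5% over the depths tried, so fragment numbers are approximate. Intervals and counts cover counting error only. Positions are from GENCODE M21 (GRCm38), and promoters from RefSeq (all 9 genes matched, 3 through a synonym). Python 3.11.15, pandas 2.3.3, numpy 2.4.6, scipy 1.17.1 and matplotlib 3.10.9 were used.

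Named genes were the 9 genes, Phb, and of each list the most abundant gene and up to 4 called genes with the largest change, of which a selection is given, and the 5 genes nearest to Prm2 and to Hist1h1t. The genes and lists were chosen with earlier results of these data known. Deviations of same-numbered libraries from their group means had r of -0.0539 to 0.0074 in spermatocytes and of 0.0607 to 0.124 in GC2. Since not every r was over 0.1 and no label says what a number shares, the tests used no block.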

Additional observations from a re-analysis of the deposited data

How the results depend on the processing

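The falls of Prm1, Prm2, Prm3, Tnp1, Tnp2, H1fnt and Hils1 in spermatocytes kept their direction and call under all 15 alternatives run, with adjusted p of at most 5.2e-05 by limma. Their log2 fold changes depended on the pseudocount and scaling. With a pseudocount of 0.1 they ran from -6.16 (Tnp1) to -7.9 (Prm2), with Prm3 at -6.67 and H1fnt at -6.29, and with quantile normalization H1fnt was at -3.51. Hist1h2ba was not called under any alternative and turned to 0.081 with quantile normalization and, over the libraries left out, ranged from -0.27 to 0.021. A filter of 5 FPKM removed it. Hist1h1t was called only with libraries rescaled to 1000000, at -1.06, where the added 1 is smaller beside its level.

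With a filter of 5 FPKM, 8240 spermatocyte rows were called (4344 higher, 3896 lower) and 764 GC2 rows were higher, where fewer rows were tested. Leaving out 1 library gave 744 to 962 higher calls in GC2, against 1153, with 750 without knockdown replicate 2 and 744 without replicate 3. With quantile normalization 62% of spermatocyte calls were higher, against 51.6%, and over all tested rows the median shifted to 0.28 (log2). Spermatocyte calls numbered 12223 to 12342 without 1 library. With the replicate block 12482 spermatocyte and 1985 GC2 rows were called, and all 7 genes kept their call. In GC2 each library's deviations correlated best with those of its own number, which is a hint from the data and not from the design.

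Low fragment numbers limit the knockout levels of Prm3, Hils1 and H1fnt, and depth limits what can be said of Hist1h1t.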

Other observations

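Among the 54 other Hist1 cluster rows in spermatocytes, 17 were tested, of which 6 were called higher and 3 lower in the knockout. Over all tested rows the shares were 40.9% higher and 38.5% lower. The highest of the Hist1 rows was Hist1h2bp, at 7.35 FPKM in control. These rows were chosen after the values of Hist1h1t were seen, and near-identical histone genes can share reads, so single values are uncertain.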
